A study of Homo sapiens with 40 samples.

Results

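The genes described here are 39 members of the p53 pathway, made up of the p53 paralogs TP63 and TP73 and 37 genes known as direct or established targets of p53, among 19663 protein-coding genes of the GENCODE 44 annotation. They were chosen by name, with earlier results of these data known, and the rule itself uses no fold change or p-value. Each gene was represented by the H3K27ac peak and the CTCF peak with the highest mean count within 2 kb of a start site of its protein-coding transcripts. H3K27ac peaks in listed enhancers were added where they lay inside the gene or had it as the nearest gene within 100 kb. An H3K27ac promoter peak was found for 34 of the 39 genes, a CTCF promoter peak for 25, both for 24, and at least 1 enhancer peak for 14. TP73, TNFRSF10A and TNFRSF10B had none of these peaks.

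p53 is a transcription factor that is stabilized by DNA damage, oncogene activity and other stress, and that binds DNA as a tetramer at a response element built of 2 adjoining half-sites. Its targets slow the cell cycle, trigger apoptosis, repair DNA and adjust metabolism, and several of them, led by the ubiquitin ligase MDM2, restrain p53 itself. In senescent cells, p53 and its target p21 (CDKN1A) act beside the Rb pathway to hold the cell cycle.

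Chromatin immunoprecipitation followed by sequencing had been performed on EndoC-βH3, a line of human beta-like cells from a fetal pancreas, with the genotype given as WT. All cells had been immortalized with transgenes for hTERT and for SV40 large T antigen, a viral protein that holds p53 and Rb inactive. The senescent group had been treated for 3 weeks with 4-hydroxytamoxifen, which activates CreER to excise these transgenes, and the non-senescent group was untreated, so that the drug, the excision and the senescent state cannot be told apart. H3K27ac, an acetylated histone found where promoters and enhancers are active, and CTCF, an architectural DNA-binding protein, were each measured in 3 senescent and 3 non-senescent libraries. H3K4me1, a methylated histone of enhancers, and Rb had 2 and 2 libraries each, and every one of the 20 immunoprecipitated libraries had an input library. The labels do not say whether replicates were separate cultures of this line, so p-values measure the spread between these libraries, which may be technical. All 12 beta-cell marker genes examined had an H3K27ac promoter peak, with mean counts from 43.6 at MAFA to 13804 at NKX2-2, against 5 of 12 markers of other islet, acinar, ductal, immune, endothelial and stromal cells. Of these others, CD68 (mean of 3544 counts), CPA1 (1498), KRT19 (913), GHRL (729) and SST (54.2) had a peak, some with more counts than beta-cell markers such as IAPP (204), and GCG, PPY, PTPRC, PECAM1, COL1A1, COL3A1 and PRSS1 had none. These counts are not divided by peak width, which was 14892 bp at CD68 and 3161 bp at IAPP. Per kb of peak, the means were 238 and 64.5 counts. A peak as wide as that at CD68 may cover start sites of other genes, so its counts need not be those of CD68. Sharing of peaks was not examined for the markers. The peaks of KRT19 and MAFA covered no start site of their gene, and lay 3037 and -55 bp from the canonical one. The promoters of GHRL, SST and KRT19 were lost in senescent cells, with log2 fold changes of -1.58, -0.86 and -0.74, and those of CD68 and CPA1 had 0.20 and 0.19, uncalled. Of the 12 beta-cell marker promoters, that of PCSK1 was lost at -1.41 and that of IAPP gained at 0.93. The other 10 were uncalled and lay between -0.42 at UCN3 and 0.50 at ISL1. All libraries were of this cell line. The part of differences in identity among its cells in the values of the p53 target genes was not tested.

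H3K27ac was higher in senescent cells at most promoters of the p53 target genes. At 10 of 34 promoters the mark was gained, meaning a fold change above 1.5 with an adjusted p under 0.05 in the authors' DESeq2 fit, and at 1 promoter, FDXR, it was lost. Over all 11254 promoter peaks of protein-coding genes, 3.38% were gained and 9.77% were lost. The gained promoters were those of PHLDA3, BBC3, SPATA18, FAS, GDF15, AEN, SERTAD1, GADD45A, SESN1 and TIGAR. The median log2 fold change of the 34 promoters was 0.31, with quartiles of 0.07 and 0.60, against a median of 0.03 and quartiles of -0.22 and 0.22 over all promoter peaks. The mark was higher in senescent cells at 26 of the 34 promoters and lower at 8, against 6089 higher and 5165 lower of all 11254 promoter peaks.

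Without the fold-change threshold, 22 member promoters were higher and 3 were lower at an adjusted p under 0.05, against 23.8% higher and 20.3% lower of all promoter peaks. The gained group thus stood beside 12 promoters with smaller increases that passed the adjusted p alone. In bulk cells, a larger share of cells with the mark and more of the mark per cell cannot be told apart. The size factors of the fit centre the typical peak at a fold change near 1, so each value is relative to the typical peak of the genome.

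**Figure D1:**
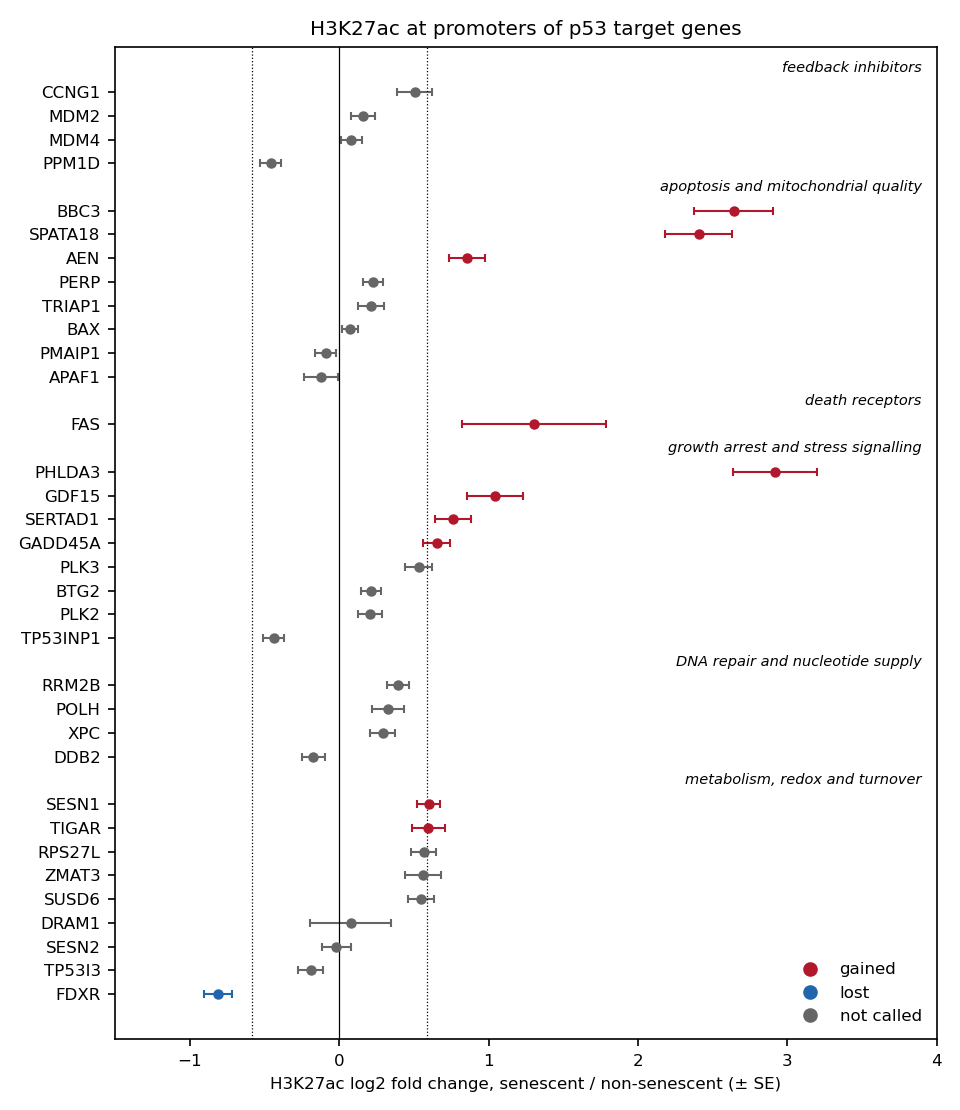
H3K27ac log2 fold change (senescent over non-senescent, ± SE) at the promoter peaks of 34 p53 target genes, by role, with dotted lines at a fold change of 1.5. Red points are gained, the blue point is lost and grey points are uncalled, and PHLDA3, BBC3 and SPATA18 stand apart from the other gained promoters at values between 2.41 and 2.91.

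The DNA under the peaks was searched for the p53 response element, here 2 adjoining half-sites of 10 bases with no spacer, each made of 3 purines, C, 2 bases that are A or T, G and 3 pyrimidines. The C and G of each core were required and at most 2 mismatches were allowed in the other positions. The element reads as the same pattern on both strands. It was found in 13 of the 34 member promoter peaks (38.2%) and in 2.67% of all promoter peaks, with median peak widths of 3446 and 2896 bp. In a window of fixed length, 2 kb on either side of the canonical start site, 35.9% of the 39 genes and 2.89% of all genes had it. Many of these genes became known as p53 targets through such elements, so this share is a description of the gene set and not independent of how it was chosen. The elements at 7 of the gained promoters are shown, with those of the feedback inhibitors MDM2 and MDM4 and the perfect matches at PLK2 and ZMAT3 beside them, 5′ to 3′ on the strand of the gene, from hg38, with the 4-base core of each half-site in capitals.
GADD45A, chr1:67686775-67686794 (+), inside the gene outside exons, 1 mismatch: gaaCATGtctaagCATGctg
SPATA18, chr4:52051957-52051976 (+), inside the gene outside exons, 2 mismatches: ggaCATGtgtgtaCATGccc
FAS, chr10:88991309-88991328 (+), in an annotated exon, 2 mismatches: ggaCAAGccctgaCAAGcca
GDF15, chr19:18385308-18385327 (+), upstream of the canonical start site, 2 mismatches: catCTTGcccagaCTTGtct
AEN, chr15:88621306-88621325 (+), just upstream of the canonical start site, 2 mismatches: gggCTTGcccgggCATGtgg
BBC3, chr19:47231320-47231339 (-), upstream of the canonical start site, 3 mismatches: ctgCAAGtcctgaCTTGtcc
SESN1, chr6:109009018-109009037 (-), inside the gene outside exons, 3 mismatches: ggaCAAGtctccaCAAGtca
MDM4, chr1:204525046-204525065 (+), inside the gene outside exons, 2 mismatches: agaCATGttccaaCATGttg
MDM2, chr12:68808923-68808942 (+), inside the gene outside exons, 2 mismatches: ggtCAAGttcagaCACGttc
PLK2, chr5:58462274-58462293 (-), upstream of the canonical start site, 0 mismatches: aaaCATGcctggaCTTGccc
ZMAT3, chr3:179070188-179070207 (-), inside the gene outside exons, 0 mismatches: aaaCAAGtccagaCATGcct

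An element with at most 2 mismatches lay in 5 of the 10 gained member peaks, those of GADD45A, SPATA18, FAS, GDF15 and AEN. The BBC3 and SESN1 peaks held one only at 3 mismatches, a looser rule that 13.7% of all promoter peaks met. The gained peaks of PHLDA3, SERTAD1 and TIGAR held none even at 3 mismatches, and PHLDA3 had the largest increase of all promoter peaks. The promoters of PLK2 and ZMAT3, whose elements had 0 mismatches, had log2 fold changes of 0.21 and 0.56 and were uncalled. Whether the number of mismatches goes with the change was not tested. Member peaks with an element had a median log2 fold change of 0.50 over 13 peaks, and those without had 0.22 over 21 peaks, and the former were wider, with median widths of 4131 and 3243 bp. Among the promoter peaks of all other genes, 288 held an element, of which 6.25% were gained and 4.86% lost, and of the 10932 without one 3.22% were gained and 9.92% lost, with median widths of 4363 and 2875 bp. The part of peak width in these differences was not tested. A match describes letters and not binding, and p53 itself was not among the proteins immunoprecipitated.

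**Figure D2:**
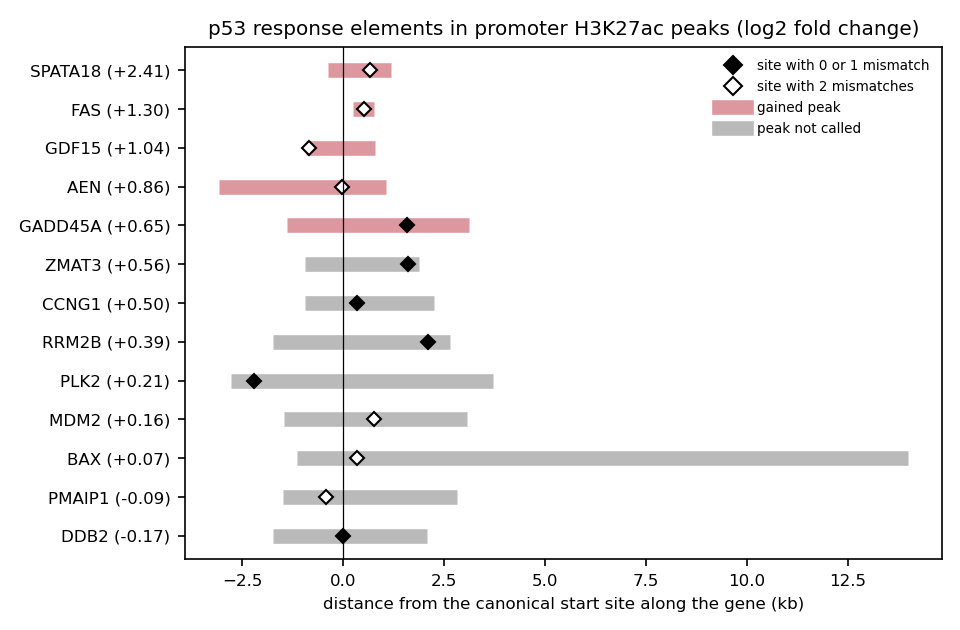
Position of p53 response elements (diamonds, filled for 0 or 1 mismatch and open for 2) in the 13 member H3K27ac promoter peaks that hold one, in kb along the gene from the canonical start site. Bars are the peaks, red where gained and grey where uncalled, the log2 fold change follows each name, and elements lie on both sides of the start site.

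Of the regulators that feed back on p53, none of 4 gained H3K27ac at the representative promoter peak. At MDM2 (chr12:68806699-68811239), the ligase that marks p53 for degradation, the mean normalized count was 1086 in non-senescent and 1213 in senescent cells, a log2 fold change of 0.16 ± 0.08 (SE) with an adjusted p of 0.119 in the authors' DESeq2 fit and a 95% interval from -0.0044 to 0.32. These group means were calculated from the deposited mean and fold change, because the tables hold no values per library. The MDM2 promoter thus carried the mark in both states, and its interval leaves out a 1.5-fold increase. PPM1D, the phosphatase Wip1 that removes activating phosphates from p53, had less of the mark in senescent cells, with 1713 and 1247 counts and a log2 fold change of -0.46 ± 0.07 (adjusted p = 2.36e-09), below the fold threshold. CCNG1, encoding cyclin G1, had 0.50 ± 0.11.

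MDM4, the relative of MDM2 that blocks the activation domain of p53, had 2 H3K27ac peaks at annotated start sites. The one at the canonical start site had a mean of 1357 counts and a log2 fold change of 0.08 ± 0.07. The other, 7769 bp into the gene at chr1:204524175-204525901, was gained, from 51.2 to 103 counts, with a log2 fold change of 1.01 ± 0.24 (adjusted p = 0.000117, authors' DESeq2). It was looked at after its values were seen, and it covers an annotated internal start site and the MDM4 element shown above. The lower of the 2 peaks was thus the one that changed, and the rule of the highest count did not pick it.

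Among 8 genes of apoptosis and mitochondrial quality control, 3 gained the mark and 0 lost it. BBC3 encodes PUMA, a BH3-only protein that neutralizes the survival proteins of the BCL2 family. Its promoter peak (chr19:47230698-47232347) went from 23.3 to 145 normalized counts, a log2 fold change of 2.64 ± 0.26 (adjusted p = 6.54e-22), which ranked 2 of 11254 promoter peaks from the top. When start sites of all BBC3 transcripts were used, a peak with a higher count took its place, and the value there was 0.28. SPATA18, or Mieap, which controls the clearance of damaged mitochondria, went from 38.8 to 206 counts with a log2 fold change of 2.41 ± 0.22 (adjusted p = 1.82e-25), rank 5. AEN, an apoptosis-enhancing nuclease, rose less, from 222 to 402 counts and by 0.86 ± 0.12 (adjusted p = 1.33e-11).

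The other apoptosis genes carried the mark in both states, with small differences. BAX, the effector that opens the mitochondrial outer membrane, had a log2 fold change of 0.07 ± 0.05 (adjusted p = 0.314) and group means of 4371 and 4588 counts. Its peak spanned 15123 bp and also covered start sites of FTL and GYS1, so the value is not that of BAX alone. PMAIP1 (NOXA), APAF1 of the apoptosome, TRIAP1 and PERP lay between -0.12 and 0.22. The APAF1 peak was shared with IKBIP and the TRIAP1 peak with GATC. The gained genes of this group also had the lower mean levels. Per kb of peak, the means were 51.1 counts at BBC3, 78.9 at SPATA18 and 75.6 at AEN, against 148 to 330 at the 5 others.

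Of 3 death receptor genes, FAS alone had an H3K27ac promoter peak. FAS, the receptor of the FAS ligand, had a short peak of 500 bp that began 254 bp inside the gene (chr10:88991052-88991551) and held the FAS element shown above. It had the lowest mean count of the 34, 19.2, rising from 11.0 to 27.3, and its log2 fold change of 1.30 ± 0.48 had the largest SE of the 34 (adjusted p = 0.0203, 95% interval 0.36 to 2.25). The peak also lay in the promoter window of ACTA2, and the call was lost at an adjusted p under 0.01. For TNFRSF10A and TNFRSF10B, which encode the TRAIL receptors, the nearest H3K27ac peaks were 20817 and 68199 bp from a start site, with log2 fold changes of 0.05 ± 0.16 for both.

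The growth arrest and stress signalling genes had 4 gained promoters of 8 with a peak. PHLDA3, an inhibitor of AKT signalling that is known as a tumour suppressor of pancreatic islets, had the highest log2 fold change of all 11254 promoter peaks, 2.91 ± 0.28 (adjusted p = 2.8e-23). Its peak, chr1:201468226-201469780, went from 20.4 to 154 counts. GDF15, a secreted stress cytokine, went from 82.4 to 170 counts (1.04 ± 0.19, adjusted p = 2.02e-07). SERTAD1, a regulator of CDK4 and E2F activity, went from 272 to 460 counts (0.76 ± 0.12, adjusted p = 3.79e-09), and GADD45A, a stress sensor that binds PCNA and p21, from 875 to 1375 counts (0.65 ± 0.09, adjusted p = 6.57e-12). For comparison, the promoter of CDKN1A, which was not in the gene set, had 84.5 and 479 counts and a log2 fold change of 2.50 ± 0.16. PHLDA3 thus exceeded it in point estimate, and the 95% intervals of 2.36 to 3.47 and 2.19 to 2.81 overlapped.

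The polo-like kinase genes PLK3 and PLK2 had log2 fold changes of 0.53 and 0.21, and the antiproliferative gene BTG2 had 0.21 ± 0.07 (adjusted p = 0.0045), all under the fold threshold. BTG2 had the densest mark of the 34 promoters, with 697 counts per kb. TP53INP1, which promotes p53-dependent death and autophagy, went the other way at -0.44 ± 0.07 (adjusted p = 9.28e-10), and its peak was shared with NDUFAF6. The group was thus mixed, with increases at 7 promoters and a decrease at 1.

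None of the 4 DNA repair and nucleotide supply genes passed the fold threshold. RRM2B, a subunit of ribonucleotide reductase, POLH, a translesion polymerase, and XPC, which recognizes damaged DNA, had log2 fold changes of 0.39, 0.33 and 0.29, each with an adjusted p under 0.05. DDB2, its partner in damage recognition, had -0.17 ± 0.08 (adjusted p = 0.0603), and an element with 1 mismatch lay 5 bp from its canonical start site. The POLH peak was shared with XPO5 and the XPC peak with LSM3, so their values are not those of the named genes alone.

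Of 9 genes of metabolism, redox balance and turnover, 2 gained and 1 lost the mark. SESN1, a sestrin that restrains mTORC1 signalling, gained it from 1400 to 2120 counts (0.60 ± 0.08, adjusted p = 4.99e-13) at an internal start site, chr6:109006880-109011941, 82905 bp from the canonical one. At the canonical SESN1 start site the peak had 0.11 ± 0.08, so the change differed between start sites of this gene by point estimates of 0.60 and 0.11, a difference that was not tested. TIGAR, a fructose bisphosphatase that slows glycolysis, gained it from 338 to 511 counts (0.60 ± 0.11, adjusted p = 3.19e-07). Both calls lay close to the threshold of 0.58 on the log2 scale and were lost when the fold changes were centred on the median promoter peak, which gave 0.57 for each.

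Just under the threshold were RPS27L, a ribosomal protein paralog (0.57 ± 0.09), ZMAT3, an RNA-binding regulator of splicing (0.56 ± 0.12), and SUSD6 (0.55 ± 0.09), the 3 uncalled promoters with the largest changes. FDXR, the mitochondrial ferredoxin reductase, was the one lost promoter. Its peak (chr17:74872186-74877667) fell from 889 to 506 counts, with a log2 fold change of -0.81 ± 0.09 (adjusted p = 4.74e-17). SESN2, TP53I3 and the autophagy gene DRAM1 lay between -0.19 and 0.08, and that of DRAM1 had an SE of 0.27 at a mean of 52.8 counts.

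Gained promoters were often weakly marked ones. Of the 6 member peaks with a mean under 150 counts, 5 were gained, and of the 28 at or above it, 5 were gained, a split made after the values were seen. Over all promoter peaks, 5.16% of those under 150 counts were gained and 29.1% lost, against 3.06% and 6.32% of the rest. The weakly marked promoters of the genome were thus more often lost than gained. None of the 6 weakly marked member peaks was lost, but these are too few to set against that share. The 5 gained ones had counts from 11.0 at FAS to 82.4 at GDF15 in non-senescent cells. Such peaks may have entered the set of peaks through the senescent state, where they are higher, which was not examined. Across the 34 member peaks, the rank correlation of mean count and absolute log2 fold change was -0.48, a description in which both quantities come from the same libraries and low counts carry larger errors.

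**Figure D3:**
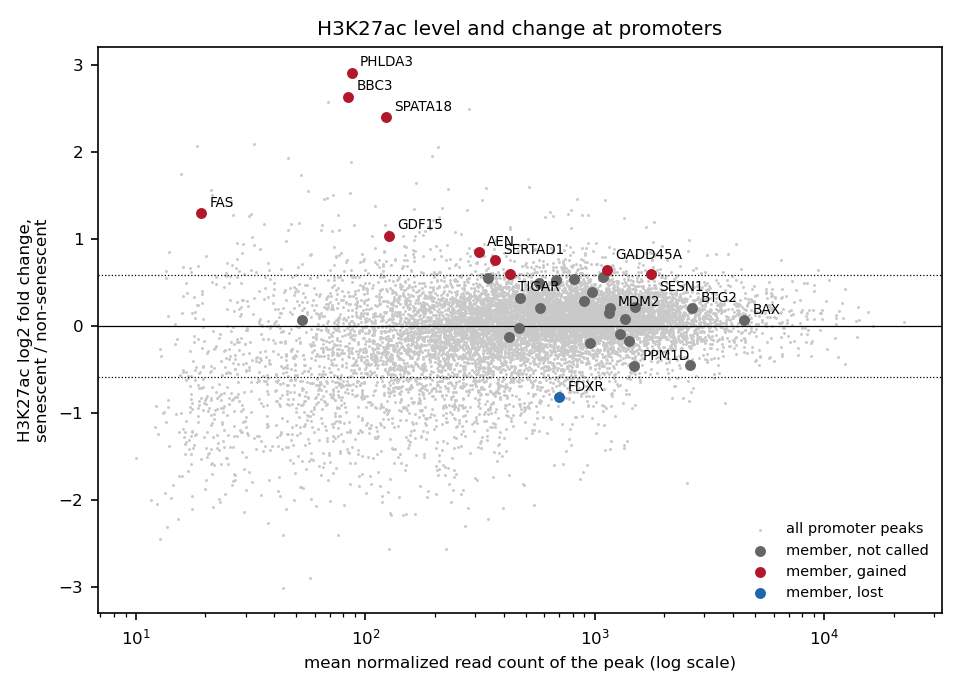
H3K27ac log2 fold change against the mean normalized read count (log scale) of 11254 promoter peaks (small grey points) with the 34 p53 target gene peaks on top, red where gained, blue where lost and dark grey where uncalled. PHLDA3, BBC3 and SPATA18 lie at the upper edge of all peaks at means of 84.3 to 122 counts, while MDM2, BTG2 and BAX lie near 0 at means of 1150 to 4479 counts.

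Further lists of the pathway showed smaller values. Of 59 other p53 target genes, 50 had an H3K27ac promoter peak, of which 3 were gained and 4 lost, with a median log2 fold change of 0.16. These peaks were counted per gene. ASTN2 and TRIM32 had the same peak, and that of IKBIP was the peak of the member APAF1, all uncalled. The gained ones were ORAI3 (0.92), CDIP1 (0.77) and SYTL1 (0.76), and the lost ones were KITLG (-1.45), SLC12A4 (-1.02), E2F7 (-0.77) and UHRF2 (-0.60). E2F7 encodes a repressor of cell-cycle genes that p53 is known to induce. Of 26 regulators and cofactors of p53, all with a peak, 0 were gained and 1, the lysine methyltransferase SETD7 (-1.21), was lost, with a median of 0.01. In these lists, 6% of the other targets and 0% of the regulators were gained, against 29.4% of the 34 member promoters and the 3.38% over all promoter peaks.

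For CTCF, no member promoter was called changed. Of 25 peaks, 0 were gained and 0 lost at the study's thresholds, a fold change above 1.5 with an adjusted p under 0.2 in the authors' DESeq2 fit, where 0.473% of all 8459 CTCF promoter peaks were gained and 4.65% lost. At an unadjusted p under 0.05, 0 of the 25 were higher and 3 lower, against 2.1% higher and 14.3% lower of all CTCF promoter peaks, so the lower ones were near the background. An adjusted p was missing for 6 of the 25. The log2 fold changes ran from -0.96 to 1.17 with a median of -0.06, against -0.17 over all CTCF promoter peaks, and their SEs from 0.11 to 0.97. At this precision a 1.5-fold change was not detectable at many of these peaks, since the median SE was 0.28.

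The CTCF peak at BBC3 came closest to a loss, with 293 and 202 counts and -0.54 ± 0.18 (adjusted p = 0.0635), under the fold threshold. PLK3 had -0.37 ± 0.13 (adjusted p = 0.0786). At GDF15, which had the highest CTCF mean of the 25, 645 counts, the value was -0.19 ± 0.11, and at MDM2 it was -0.06 ± 0.19. At FAS it was 0.29 ± 0.18 and at PHLDA3 0.69 ± 0.49 on a mean of 18.4 counts. The promoters with the largest H3K27ac changes, PHLDA3 and BBC3, thus had CTCF point estimates of opposite sign. That of BBC3 was uncalled. That of PHLDA3 had no adjusted p and could not be called, and its 95% interval of -0.26 to 1.64 spanned both signs.

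**Figure D4:**
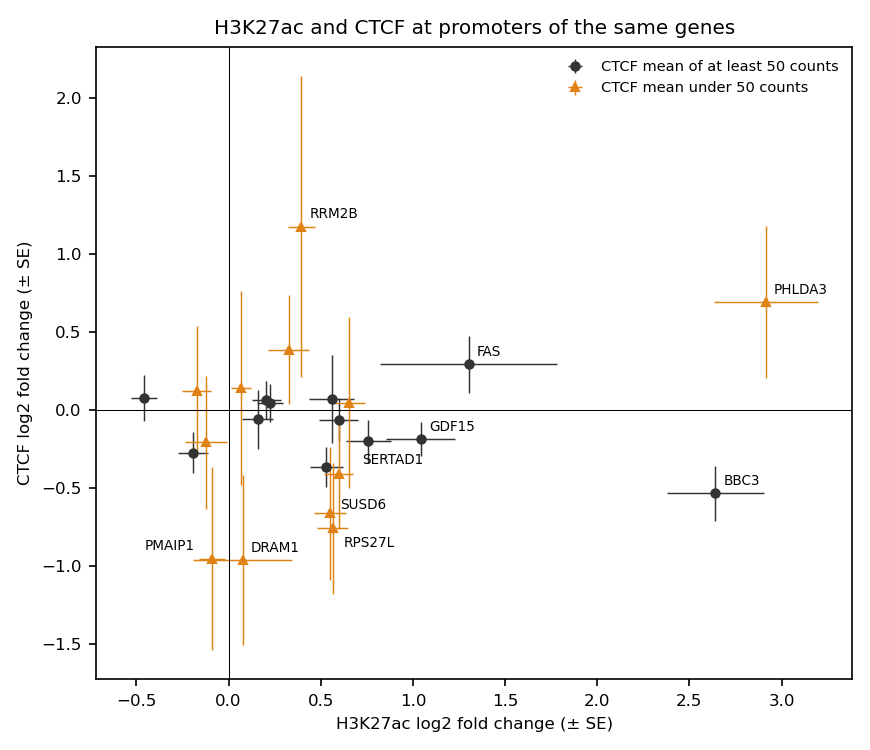
CTCF against H3K27ac log2 fold change (senescent over non-senescent, ± SE) at the 24 p53 target genes with both promoter peaks, as circles for a CTCF mean of at least 50 counts and triangles for less. CTCF values lie on both sides of 0 at small and at large H3K27ac changes, and the long vertical bars belong to the weak CTCF peaks.

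Across these 24 genes the rank correlation of both changes was 0.03 and Pearson's r was 0.16, with the same sign at 12 genes. Over the 12 genes with at least 50 CTCF counts the values were -0.23 and -0.42. The 2 assays used separate libraries of the same cell states, and these values are given as a description. At FAS, TIGAR and SESN1 the CTCF peak lay at another start site than the H3K27ac peak. It had a position of -2954 bp from the canonical start site at FAS and -12629 bp at TIGAR, and it covered that start site at SESN1.

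At enhancers the p53 target genes did not share a direction. The 36 peaks lay at 14 genes and comprised 4 gained and 5 lost peaks, with a median log2 fold change of -0.12, against -0.04 over all 17156 H3K27ac peaks in listed enhancers, of which 14.1% were gained and 19.2% lost. The listed enhancers were the authors' regions of overlapping H3K27ac and H3K4me1 outside promoters, given for each state. The shares of member peaks, 11.1% gained and 13.9% lost, were near this background. Of the 36 peaks, 22 overlapped a region listed in both states, 4 one of senescent cells only and 10 one of non-senescent cells only. The split of all 17156 peaks was similar, at 10242, 2623 and 4291. All 10 member peaks listed in non-senescent cells only had a negative log2 fold change. So did 3521 of all 4291 peaks listed in non-senescent cells only, a listing that itself uses H3K27ac in that state.

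GADD45A and PMAIP1 each had enhancer peaks that moved in opposite directions. A peak 74511 bp upstream of GADD45A (chr1:67607276-67610690) went from 286 to 598 counts, 1.07 ± 0.12 (adjusted p = 8.5e-19), while one 5681 bp upstream went from 665 to 410 counts, -0.70 ± 0.10. A peak 56551 bp downstream of the PMAIP1 start site (chr18:59956547-59959823) went from 415 to 724 counts, 0.80 ± 0.10 (adjusted p = 1.04e-14), while one at 79816 bp had -0.95 ± 0.24. The second peak of each pair was named after its values were seen. The GADD45A promoter and a peak far upstream thus gained the mark, and 1 of 3 peaks in between lost it. For PMAIP1 a distal peak was gained, with a promoter at -0.09. These enhancer peaks lie outside both genes and are tied to them by distance alone.

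The other gained peaks were inside genes and listed in senescent cells only, and 3 of the 5 lost ones were listed in non-senescent cells only. Of all enhancer peaks listed in senescent cells only, 45.7% were gained, against 50% of the 4 member peaks. Of all those listed in non-senescent cells only, 45.7% were lost, against 30% of the 10 member peaks. Each listing itself uses H3K27ac in its own state. The gained peak in SESN1, 4885 bp from the canonical start site, had 0.65 ± 0.15 (adjusted p = 0.000117). The gained peak in PPM1D, 26095 bp from the start site, had 0.62 ± 0.19 (adjusted p = 0.00389), opposite in sign to the PPM1D promoter. The largest loss was -1.58 ± 0.16 (adjusted p = 4.17e-20) at a peak 90427 bp from the APAF1 start site, which lies inside ANKS1B and is tied to APAF1 by distance alone. A peak 18985 bp from the PERP start site had -0.65 ± 0.12 (adjusted p = 1.51e-06). The BTG2 locus held the member enhancer peak with the highest mean, 16650 bp wide with 10089 counts, at -0.24 ± 0.06, uncalled. Apart from a lost peak in TP63, the remaining enhancer peaks were uncalled and lay between -0.79 and 0.52.

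**Figure D5:**
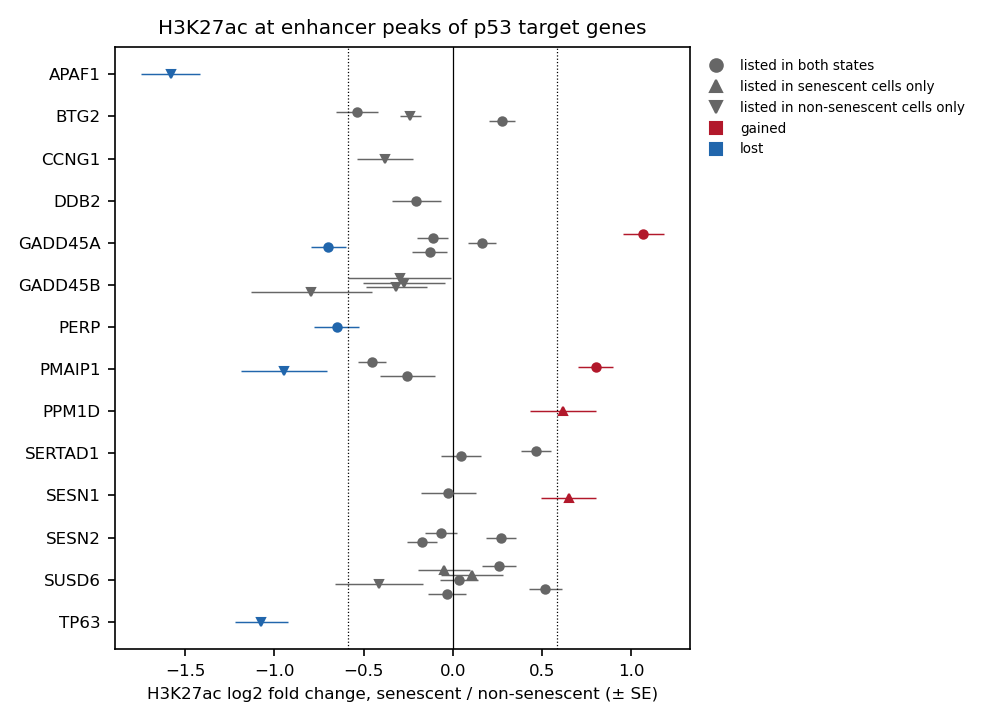
H3K27ac log2 fold change (senescent over non-senescent, ± SE) at 36 enhancer peaks of 14 p53 target genes, with dotted lines at a fold change of 1.5. Circles are listed in both states, triangles pointing up or down in senescent or non-senescent cells only, red is gained and blue is lost, and GADD45A and PMAIP1 have peaks of both colours.

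TP63, the p53 paralog of epithelial cells, had no H3K27ac promoter peak but an enhancer peak inside the gene, chr3:189719740-189723522, that fell from 373 to 177 counts, -1.07 ± 0.15 (adjusted p = 1.44e-11). Its nearest H3K27ac peak, 49911 bp from a start site and outside the listed enhancers, went the other way, from 22.0 to 74.8 counts, 1.76 ± 0.31 (adjusted p = 8.31e-08), a peak looked at after its values were seen. The H3K27ac peak nearest to TP73 lay 26181 bp away with 0.45 ± 0.15, under the fold threshold. GADD45B, a stress gene related to GADD45A, had no H3K27ac promoter peak, and its 4 enhancer peaks lay between -0.79 and -0.27, all uncalled. Its nearest H3K27ac peak, at -13256 bp from the start site and outside the listed enhancers, was lost, with 31.8 and 14.5 counts and -1.13 ± 0.47 (adjusted p = 0.0427), and was likewise looked at after its values were seen.

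An element with at most 2 mismatches lay in 2 of the 36 enhancer peaks, both at SUSD6, or 5.56%, against 3.05% of all peaks in listed enhancers. Their log2 fold changes were -0.03 and 0.26. The gained enhancer peaks of GADD45A, PMAIP1, SESN1 and PPM1D held none at this limit, which says only that these letters are not in these windows.

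Rb, the other protein released from the large T antigen, had been compared between states by the authors as a list of 2435 regions called in senescent libraries against non-senescent ones. The study's methods give a threshold on the unadjusted p of MACS2 for these regions. Of the 39 genes, 1, PERP, had such a region in its promoter window, against 1.57% of all protein-coding genes. It spanned 347 bp (chr6:138107169-138107515) and covered the start site of PERP, a membrane protein of desmosomes that p53 induces during apoptosis, whose promoter had an H3K27ac log2 fold change of 0.22 ± 0.07 (adjusted p = 0.00401). The list holds positions without values, so the change in Rb at this site has no size here.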

How the data were processed

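H3K27ac and CTCF ChIP-seq of EndoC-βH3 cells were examined as 2 deposited tables with no values per library. Reads had been trimmed with Trim Galore and mapped to hg38 by Bowtie2. The authors called peaks against input, with HOMER for H3K27ac and MACS2 for CTCF, and fitted DESeq2 to raw counts of reads in peaks. Tool versions are not given in the sources used here. The deposited mean signal is the mean of counts divided by size factors. Also deposited were a log2 fold change with standard error, the Wald score (the ratio of both) and a p-value with its Benjamini-Hochberg adjusted form, all from the authors' fit. The planned edgeR test for raw counts did not apply, so the authors' values were used with the study's thresholds and no model was refitted. An adjusted p was missing for 11972 of 51457 CTCF peaks, which stayed uncalled. The study's methods give a CTCF motif filter before the test, and whether the table is from before or after it was not checked.

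Depth per library is not given by the tables. The mean counts summed to 19239499 for H3K27ac and 6136424 for CTCF, and the SE of each fold change carries the precision.

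Peaks, enhancer lists and Rb regions were joined to GENCODE 44 start sites in Python 3.11.15 with pandas 2.3.3 and NumPy 2.4.6, at an overlap of at least 1 bp. All 24 chromosome names fitted hg38. Group means were computed from the mean signal and the fold change, taking 3 libraries a state as equal in weight, and 95% intervals from the SE with the normal distribution. Scripts were tested on simulated data. The members and gene lists were chosen with earlier results of these data known. Genes named were all those with a called peak (for enhancers, the one of smallest adjusted p per gene), the 3 uncalled promoters of largest change, MDM2, BAX, FAS, GDF15, BTG2 and CDKN1A; all others were named after their values were seen. Alternatives covered thresholds, windows, start sites, counts, centring, GC content, distance and mismatches.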

Additional observations from a re-analysis of the deposited data

How the results depend on the processing

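For H3K27ac at promoters, a fold change above 2 left 5 gained and 0 lost, no fold threshold gave 22 and 3, and a test against a fold change of 1.5, adjusted over all peaks, gave 3 and 0. Under the other settings (adjusted p under 0.01, a 1 kb window, all transcripts, the canonical start site, a minimum of 50 counts, centring, GC deciles) 8 to 10 were gained and 1 lost. Over the 27 peaks of a single protein-coding gene, an alternative chosen after seeing the data, the median log2 fold change was 0.50, with 9 gained. For CTCF, no fold threshold gave 2 lost, and every other alternative run gave 0 gained and 0 lost. For enhancers, a fold change above 2 and a test against 1.5 each left 1 gained and 2 lost, and a distance of 50 kb left 2 and 3. Counting only peaks nearest to a member, also chosen after seeing the data, gave 4 and 5. The share of member promoter peaks with a p53 response element was 17.6% at 1 mismatch and 67.6% at 3. Single genes were followed only for the H3K27ac promoter peaks of 17 members (those gained or lost, RPS27L, ZMAT3, SUSD6, MDM2, BAX and BTG2). None of these reversed its direction, but the thresholds, the test against 1.5 and the count minimum leave the fold change itself unchanged. Across these genes and settings, the outcome was weaker 20 times, stronger 4 times and the same 145 times. TIGAR also lost its call within GC deciles, at 0.57.

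No paired analysis was possible because the tables carry no values per library, and for the same reason leaving out replicates was not run. Depth limits the CTCF values most, with SEs up to 0.97, and the FAS promoter at 19.2 counts.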
